A study of Mus musculus with 12 samples.

Results

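The genes described here are 10 Wnt targets and intestinal crypt stem cell genes, namely Notum, Lgr5, Axin2, Nkd1, Ascl2, Sox9, Rnf43, Znrf3, Ephb2 and Cd44. They were taken by symbol from a table of read counts with 55137 gene identifiers, and all 10 were found. Of these, 9 had a count in at least 1 library and 8 passed the filter on low counts. Ascl2 and Sox9 did not pass it and have no test.

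The counts came from CMT-93, an epithelial cell line derived from a mouse rectal carcinoma. RNA was sequenced from 12 libraries in 4 groups of 3: Control, PTSO, T. muris, and PTSO + T. muris. PTSO, an organosulfur compound of garlic, was used at 20 µM, and antigens of the whipworm Trichuris muris at 100 µg/mL. PTSO or its vehicle preceded the antigens by 30 minutes, and cells were harvested after 6 hours. All groups are the same carcinoma line, and no allele or transgene is named for any of them. The series' design text writes the compound as PTSO-PTS, and the series title names LPS where the sample labels name T. muris; groups follow the sample labels. Nothing states that libraries within a group were grown as separate cultures, so p-values measure only the spread between these libraries, which may be technical.

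Wnt ligands bind Frizzled and LRP receptors at the cell surface, which protects beta-catenin from destruction and lets it activate genes together with TCF/LEF factors. Many of the genes it activates feed back on the pathway: Notum inactivates the ligand, Rnf43 and Znrf3 remove the receptors, Axin2 rebuilds the destruction complex, and Nkd1 binds Dishevelled. In the intestine the pathway keeps stem cells at the crypt base, which are marked by Lgr5 and Ascl2, and these genes are read as a measure of its activity.

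Library totals were 16.7 to 34.5 M counts. Over all tested genes, control libraries 2 and 3 lay away from the rest, at -35.4 and -41.5 on the principal component with 19.6% of the variance, where control library 1 was at -3.58 and the treated libraries at 0.929 to 23. The members' comparisons with the control group are therefore given with and without these libraries. Epithelial markers Krt8, Krt18, Krt19, Epcam and Cdh1 had mean levels of 570 to 2910 CPM (counts per 1000000 of the library, scaled by TMM) over the 12 libraries. Intestinal markers were mixed. The galectin gene Lgals4 had a mean of 79.9 CPM, while Cdx1 and Muc2 had no count in any library, Cdx2 had a mean of 0.864 CPM, Krt20 0.503 CPM and the brush border gene Vil1 3.6 CPM. Epcam, the epithelial adhesion gene, was called higher with PTSO (0.29 on the log2 scale), with T. muris (0.15) and with both (0.37) against control and in PTSO + T. muris against T. muris (0.22). With control libraries 2 and 3 left out, its call with T. muris against control was lost (adjusted p = 0.819) and the others held (0.00282 with PTSO, 4.13e-05 with both and 0.000162 against T. muris). Krt19 was called lower with PTSO and with both, Cdh1 lower and Krt18 higher with both, and these calls were lost without those libraries (adjusted p from 0.461 to 0.761). The part of these markers in the results was not tested. The summed level of all 12 epithelial and colonic markers was 8140 to 8790 CPM, with ranges of the groups that overlapped. The summed level of 9 leukocyte markers was 5.02 to 7.99 CPM, most of it from Cd68 and Ly6g, with Ptprc at 0.037 CPM. That of 10 fibroblast and endothelial markers was 3.31 to 4.95 CPM, with Col3a1, Pdgfrb, Dcn and Lum at 0; Pdgfra, at 0.945 CPM, was called lower with both treatments against control (-1.93) on 5 to 55 counts per library, and was at -0.91 (adjusted p = 0.788) without control libraries 2 and 3.

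Among the members the highest level per length was that of Cd44, a hyaluronan receptor, with 115 ± 5.45 CPM per kilobase of exon (SD over 12 libraries), above 97.6% of the tested genes. Axin2 (40.6 ± 5.73), Nkd1 (37.6 ± 11.3) and Rnf43 (35 ± 5.62 CPM per kilobase) followed, and their ranges over the libraries overlapped, so that their order is not resolved. Znrf3 (7.8 ± 0.667), the R-spondin receptor gene Lgr5 (4.18 ± 1.11) and the ephrin receptor gene Ephb2 (2.42 ± 0.187 CPM per kilobase) lay lower, each with a range that did not reach its neighbour's. Notum, at 1.64 ± 0.848 CPM per kilobase, ranged from 0.777 to 3.92 and overlapped both Ephb2 and Lgr5. It stood above 28% of the tested genes.

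**Figure D1:**
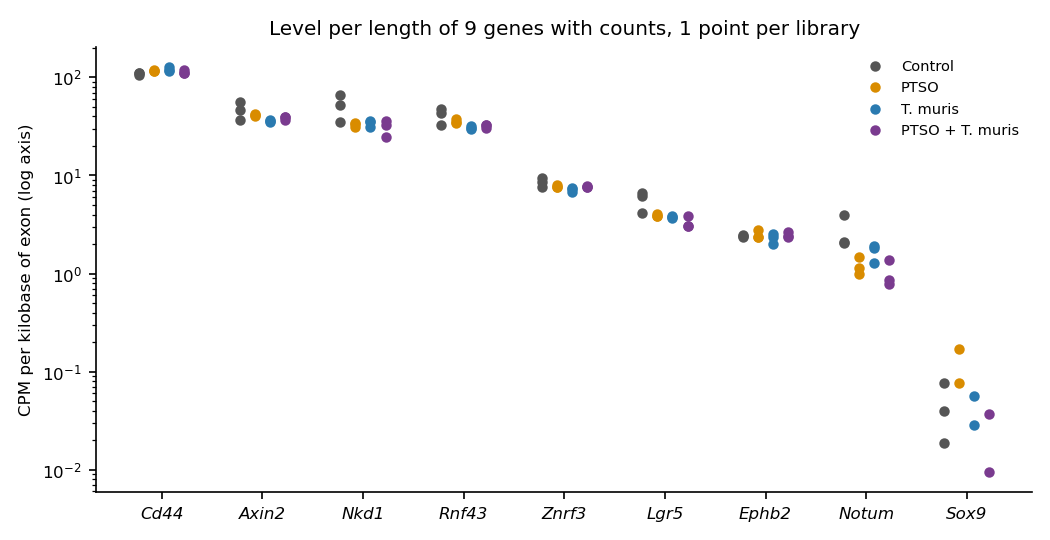
Level per length of the members, in TMM-scaled CPM per kilobase of exon on a log axis, with 1 point per library and colours for the 4 groups. Cd44 lies between 107 and 127, Axin2, Nkd1 and Rnf43 overlap, and Sox9 reaches at most 0.169, below the lowest Notum value of 0.777; libraries with no Sox9 count, and Ascl2, are not drawn.

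The 2 transcription factor genes of the set were at or near 0. Ascl2, which specifies Lgr5-positive stem cells, had 0 of the 306435607 counts of all 12 libraries, which allows a level of up to 0.00979 CPM at a floor of 3 counts. Sox9, which marks the crypt base and progenitors, had 53 counts in all. Its counts were 8, 4 and 2 in the control libraries, 9, 0 and 16 with PTSO, 4, 6 and 0 with T. muris antigens and 1, 0 and 3 with both. Pooled by group this was 0.185 CPM in control (95% exact Poisson interval 0.101 to 0.31), 0.304 CPM with PTSO (0.197 to 0.449), 0.13 CPM with T. muris (0.0622 to 0.239) and 0.056 CPM with both (0.0153 to 0.143). These intervals cover counting error only. The libraries of one group differed by as much as the groups did, so no order of the groups can be read from Sox9. Lgr5, for comparison, had 13125 counts in the same libraries.

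Notum, which encodes a secreted enzyme that removes the lipid from Wnt ligands, was the member with the lowest tested level and the widest relative range. It had 4.88, 5.03 and 9.44 CPM in the control libraries and 3.55, 2.72 and 2.4 CPM with PTSO. With T. muris antigens it had 4.59, 3.09 and 4.4 CPM, and with both treatments 1.87, 2.06 and 3.35 CPM. All control libraries lay above all 9 treated libraries, and control library 3 lay far above the other control libraries. The highest library was 5.05 times the lowest, on 48 to 246 counts per library.

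Axin2, the scaffold that the pathway induces to limit itself, had 205, 256 and 307 CPM in the control libraries and 231, 224 and 229 CPM with PTSO. It had 193, 205 and 198 CPM with T. muris and 203, 215 and 217 CPM with both. Control libraries 2 and 3 were the highest, and control library 1 lay within the range of the treated libraries. The coefficient of variation was 19.9% in the control group and 1.55% to 3.61% in the treated groups.

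Nkd1, an inducible antagonist that binds Dishevelled, had 159, 241 and 305 CPM in the control libraries and 158, 142 and 152 CPM with PTSO. It had 142, 161 and 165 CPM with T. muris, and 113, 151 and 166 CPM with both. As for Axin2, the first control library fell within the treated range of 113 to 166 CPM and the other control libraries far above it.

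The sequences upstream of Axin2 and Nkd1 are shown because both genes had this arrangement over the libraries and are known targets of TCF/LEF factors. Each run holds the 250 bases before the RefSeq transcription start, on the gene's strand, in build GRCm38.p6, an earlier build than the mm39 that the submitters name.
Axin2, chr11:108920099-108920348, plus strand: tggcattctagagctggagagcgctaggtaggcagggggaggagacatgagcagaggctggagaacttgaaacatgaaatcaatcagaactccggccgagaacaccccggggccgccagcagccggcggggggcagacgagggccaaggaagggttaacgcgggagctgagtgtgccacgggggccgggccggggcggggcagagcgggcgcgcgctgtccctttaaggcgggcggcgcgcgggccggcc
Nkd1, chr8:88527383-88527632, plus strand: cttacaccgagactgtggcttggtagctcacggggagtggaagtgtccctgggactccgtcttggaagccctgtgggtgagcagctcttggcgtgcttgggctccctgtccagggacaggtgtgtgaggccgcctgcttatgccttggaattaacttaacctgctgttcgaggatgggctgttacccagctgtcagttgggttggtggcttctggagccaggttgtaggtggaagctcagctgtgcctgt
No letters are in capitals because neither run holds a TCF/LEF core, searched as CTTTG followed by AA, AT, TA or TT on both strands. The 6 members with a RefSeq window, Ascl2, Axin2, Cd44, Ephb2, Nkd1 and Rnf43, had 7 windows, and 0 of them held a core, against 14.8% of 32851 windows of all genes. The Axin2 run is 69.2% G and C and the Nkd1 run 58.4%. No match says only that these letters are not in this window.

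Rnf43 and Znrf3 encode related transmembrane ubiquitin ligases that clear Frizzled from the cell surface. Rnf43 had 214, 287 and 316 CPM in the control libraries and 247, 225 and 229 CPM with PTSO. It had 194, 210 and 200 CPM with T. muris and 202, 216 and 217 CPM with both. Control libraries 2 and 3 were again above the rest, and the T. muris group had the lowest mean, 201 CPM.

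Znrf3 had 60.6, 67.3 and 75 CPM in the control libraries and 60.6, 60.1 and 62.6 CPM with PTSO. It had 58.7, 57.9 and 53.8 CPM with T. muris and 60.5, 60.5 and 61.1 CPM with both. The pattern was that of Rnf43 on a narrower scale: the highest library was 1.4 times the lowest, against 1.63 times for Rnf43.

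Lgr5, whose product binds R-spondins and marks crypt base stem cells, had 42.5, 64.1 and 68 CPM in the control libraries and 39.5, 41.5 and 39.9 CPM with PTSO. It had 39.1, 39.3 and 38.2 CPM with T. muris and 31.5, 31 and 39.6 CPM with both. All control libraries exceeded all treated libraries, control library 1 by 42.5 to 41.5 CPM. In this bulk RNA, fewer cells with the transcript and less transcript per cell cannot be told apart.

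Ephb2, which positions cells along the crypt, and Cd44 did not share this arrangement. Ephb2 had 30, 30.4 and 31.2 CPM in the control libraries, 29.6, 29.5 and 35.2 CPM with PTSO, 25.5, 32.2 and 29.8 CPM with T. muris, and 29.6, 33.3 and 30.6 CPM with both. The groups overlapped throughout. Cd44 had 752, 752 and 724 CPM in the control libraries and 787, 784 and 800 CPM with PTSO. It had 863, 786 and 800 CPM with T. muris and 805, 758 and 742 CPM with both. All Cd44 values of the single treatments lay above the control values, by small margins.

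**Figure D2:**
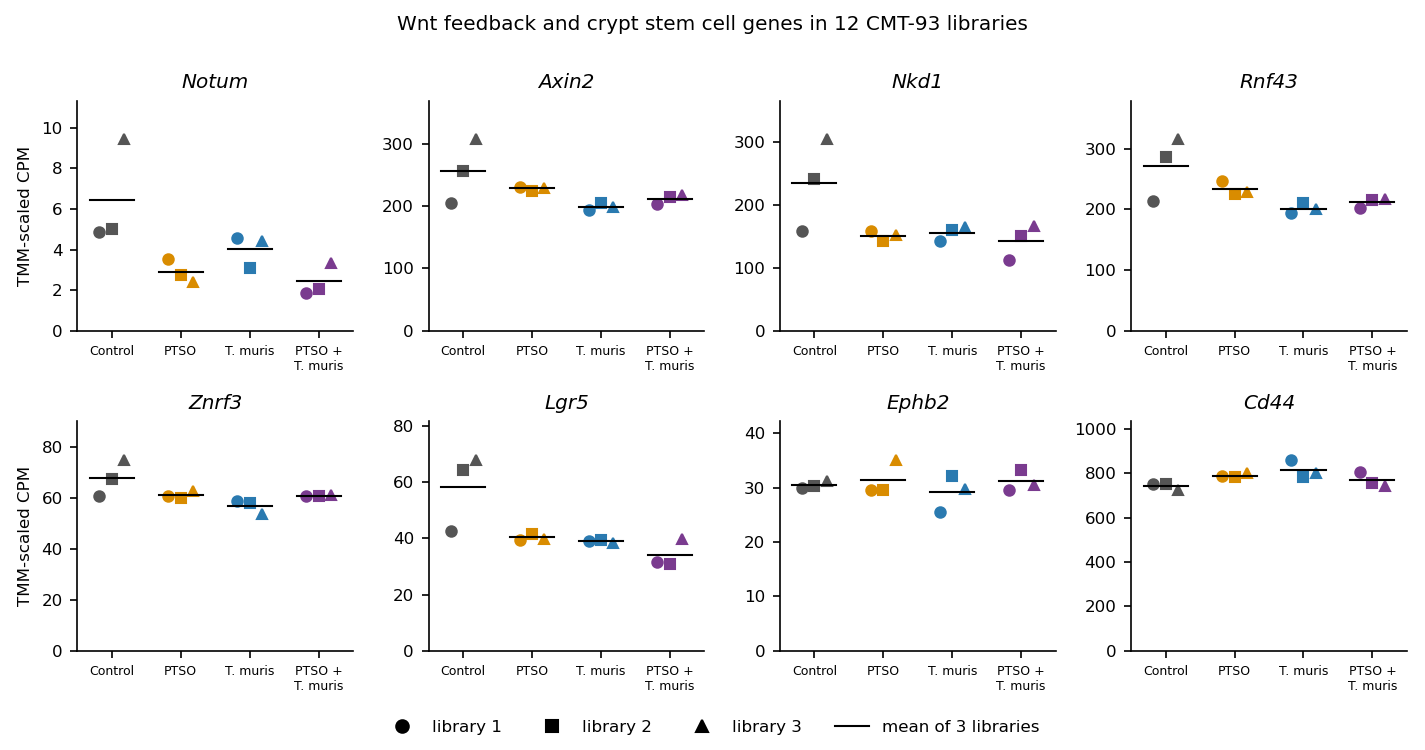
Level of the 8 tested members in each of the 12 libraries, in TMM-scaled CPM on axes that start at 0, with marker shapes for the library number and a line at each group's mean of 3 libraries. Control libraries 2 and 3 lie above the other 10 libraries for Notum, Axin2, Nkd1, Rnf43, Znrf3 and Lgr5 and do not for Ephb2 and Cd44.

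Control libraries 2 and 3 were both above the other 10 libraries for 6 of the 8 tested members. Over all tested genes this arrangement occurred in 14.6%, and its reverse in 15.5%. The arrangement was looked for after the values had been seen, and it is given as a description. For Axin2, Nkd1, Rnf43 and Znrf3 control library 1 ranked between the fifth and the eighth of the 12 libraries, and for Notum and Lgr5 it came next after control libraries 2 and 3. For Notum the margin was narrow, with 5.03 CPM (124 counts) in control library 2 and 4.88 CPM (123 counts) in control library 1.

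The comparison of PTSO with control asks what the compound changed without antigens. Notum had 6.45 ± 2.59 CPM in control and 2.89 ± 0.594 CPM with PTSO (SD of 3 libraries each). It fell by 1.15 ± 0.275 on the log2 scale, with the error an SE, and the adjusted p in edgeR's quasi-likelihood test was 0.0216. It was the 1 member of 8 called at an adjusted p under 0.05, where 5.25% of all 15267 tested genes were called and 2.9% were called lower. Lgr5, at -0.53 ± 0.146, missed the threshold with adjusted p = 0.0576, and Nkd1 was at -0.64 ± 0.226 (adjusted p = 0.137). The groups did not overlap for 3 members that were lower with PTSO (Notum, Lgr5 and Nkd1) and 1 that was higher (Cd44), where 10.2% and 10.4% of all tested genes were so arranged. Axin2, Rnf43 and Znrf3 had values of -0.17, -0.22 and -0.15, and adjusted p-values of 0.408, 0.278 and 0.192. Cd44 was at 0.09 ± 0.0445 (adjusted p = 0.238), and Ephb2 at 0.04 with a 95% interval of -0.153 to 0.233. The median of the 8 members was -0.2 on the log2 scale, beside 0.00165 for all genes tested.

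Notum's call in that comparison rested on single libraries. Its adjusted p rose to as much as 0.159 and the call was lost without control library 3, PTSO library 2 or PTSO library 3. Without control libraries 2 and 3 together, the value was -0.75 ± 0.323 with adjusted p = 0.555. Axin2 and Rnf43 then had values of 0.15 and 0.13, of opposite sign, and Lgr5 and Nkd1 were at -0.08 each. In that fit the lone control library is assumed to vary like the other groups, Sox9 also passes the filter, 0 of the 9 members tested were called, and 0.463% of all tested genes were. Without control library 1 instead, 6 of the 8 were called lower, with Lgr5 at -0.72 ± 0.0814 and adjusted p = 1.04e-07, where 23.1% of all tested genes were called and 11.6% were called lower.

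T. muris antigens against control asks what the antigens changed without PTSO. Lgr5 had 58.2 ± 13.7 CPM in control and 38.9 ± 0.621 CPM with antigens (SD of 3 libraries each), and fell by 0.581 ± 0.147 on the log2 scale (adjusted p = 0.0397). Znrf3 fell from 67.7 ± 7.21 to 56.8 ± 2.62 CPM, or -0.25 ± 0.0679 with adjusted p = 0.0354. These 2 of 8 members were called, both lower, where 6.35% of all tested genes were called and 3.43% were called lower. Rnf43 was at -0.44 ± 0.114 (adjusted p = 0.0507), Axin2 at -0.37 ± 0.11 (adjusted p = 0.0697), Notum at -0.68 ± 0.271 (adjusted p = 0.121) and Nkd1 at -0.59 ± 0.226 (adjusted p = 0.149). Cd44 was the member with the highest value, 0.14 ± 0.0445 (adjusted p = 0.0659), from 743 ± 16.1 to 816 ± 41.3 CPM. The groups did not overlap for 5 members that were lower (Notum, Lgr5, Axin2, Rnf43 and Znrf3) and 1 that was higher (Cd44), where 11.7% and 11.3% of all tested genes were so arranged. The median of the 8 was -0.4, beside 0.00116 for all genes tested.

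Both calls in T. muris against control were lost without any 1 of the T. muris libraries or without control library 2 or 3, with adjusted p up to 0.179 for Lgr5 and 0.202 for Znrf3. The call of Lgr5 was also lost without any PTSO library and without library 1 or 2 of PTSO + T. muris, and that of Znrf3 without library 2 of PTSO + T. muris. Without control libraries 2 and 3 together, Lgr5 was at -0.13 and Znrf3 at -0.09, both with adjusted p = 0.998, where 0.0481% of all tested genes and 0 of 9 members were called. Without control library 1, 6 members were called lower and Cd44 was called higher (0.15 ± 0.0423, adjusted p = 0.00993), where 25.7% of all tested genes were called, 12.4% lower and 13.4% higher.

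PTSO + T. muris against control asks what the treatments changed together. Notum fell to 2.43 ± 0.807 CPM, a log2 fold change of -1.43 ± 0.283 or 0.372 times the control mean, with adjusted p = 0.00308. Lgr5 fell to 34 ± 4.84 CPM, at -0.78 ± 0.148 with adjusted p = 0.00533. In both genes, and in 0 others, the groups did not overlap, an arrangement that 14.9% of all tested genes had in the lower and 14.5% in the higher direction. Both calls held whichever 1 library was left out, with adjusted p up to 0.0266 and 0.0316. These were the 2 of 8 members called, where 16.7% of all tested genes were called, 8.85% lower and 7.88% higher. Nkd1 was at -0.72 ± 0.227 (adjusted p = 0.0657), Rnf43 at -0.36 ± 0.114 (adjusted p = 0.0545), Axin2 at -0.27 ± 0.11 (adjusted p = 0.117) and Znrf3 at -0.16 ± 0.0677 (adjusted p = 0.119). Ephb2 (0.03) and Cd44 (0.05) had intervals that included 0. The median of the 8 was -0.32, beside 0.000809 for all genes.

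Without control libraries 2 and 3 together, Notum was at -1.02 ± 0.326 (adjusted p = 0.155) and Lgr5 at -0.32 ± 0.109 (adjusted p = 0.199) in PTSO + T. muris against control. Their 95% intervals, -1.68 to -0.356 and -0.545 to -0.101, did not include 0. In that fit 0 of 9 members were called, where 1.23% of all tested genes were. The values of Axin2, Rnf43 and Znrf3 were then 0.05, -0.01 and 0. With control library 1 left out, 6 members were called lower, where 30.5% of all tested genes were called and 15% were called lower. The comparisons against control share the control libraries, so their values for a member are not independent of each other.

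**Figure D3:**
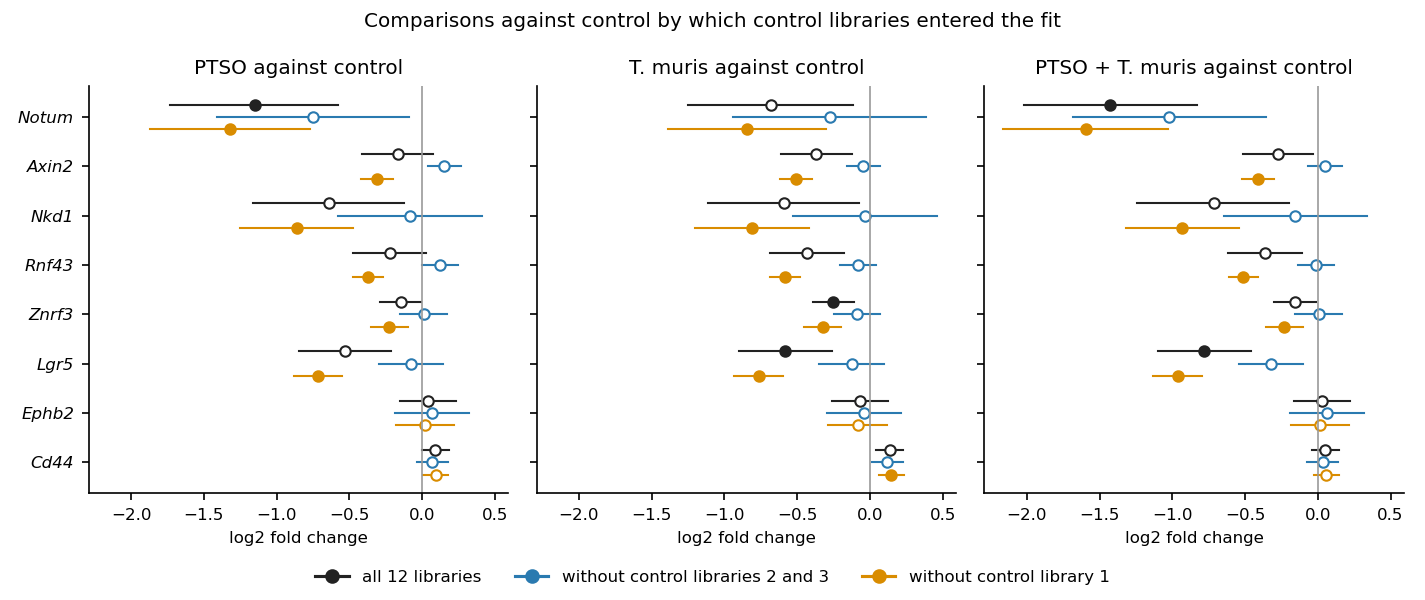
Log2 fold changes of the 8 tested members, with 95% intervals, in the comparisons against control, for the fit with all 12 libraries, without control libraries 2 and 3, and without control library 1; filled points are called at an adjusted p under 0.05. Without control libraries 2 and 3 no point is filled and Axin2, Rnf43 and Znrf3 lie near 0 or above it in PTSO against control, while without control library 1 Notum, Axin2, Nkd1, Rnf43, Znrf3 and Lgr5 are filled in every panel.

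The effect of PTSO in antigen-treated cells is read from PTSO + T. muris against T. muris, a contrast whose groups hold no control library. The control libraries still enter the shared estimate of the spread, on which its SEs and intervals rest. Notum was at 4.02 ± 0.813 CPM with antigens alone and 2.43 ± 0.807 CPM with both, a log2 fold change of -0.74 ± 0.288 with adjusted p = 0.399 and an interval of -1.35 to -0.139. Of the 8 members, 0 were called, where 0.616% of all tested genes were (0.229% higher and 0.386% lower); 1 of the 8 had an unadjusted p under 0.05, and DESeq2 called 0. Lgr5 was at -0.2 ± 0.15, with an interval of -0.525 to 0.129, and both libraries at 31 to 31.5 CPM lay below the antigen group while the remaining one, at 39.6 CPM, did not. Znrf3 was at 0.09 ± 0.0683 (adjusted p = 0.75) and was the 1 member whose groups did not overlap, an arrangement of 8.92% of all tested genes in the higher and 9.74% in the lower direction. Axin2, Rnf43 and Ephb2 had values of 0.09, 0.07 and 0.1, Nkd1 -0.12 and Cd44 -0.09, all with adjusted p-values from 0.593 to 0.929. The members' median was -0.00704, beside 0.000839 for all genes. The intervals reached from -0.15 to 0.338 for Axin2, from -0.0479 to 0.237 for Znrf3 and from -0.647 to 0.398 for Nkd1. With control libraries 2 and 3 left out, the values of these 8 members moved little and their intervals were narrower. Lgr5 was then at -0.197 (interval -0.359 to -0.0364), Axin2 at 0.0957 (0.0141 to 0.177) and Cd44 at -0.0852 (-0.16 to -0.0108). These intervals and that of Notum, at -0.741 (-1.24 to -0.24), did not include 0. Those of Nkd1, Rnf43, Znrf3 and Ephb2 did. Without control libraries 2 and 3 the count was again 0, where 2.56% of all tested genes were called.

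The effect of the antigens after PTSO is read from PTSO + T. muris against PTSO. Again 0 of the 8 members were called, as were 0% of all tested genes; 0 members had an unadjusted p under 0.05, and DESeq2 called 0. Lgr5 was at -0.25 ± 0.149 (interval -0.574 to 0.0756) and Notum at -0.27 ± 0.292 (-0.886 to 0.337). Axin2 (-0.11 ± 0.11) and Rnf43 (-0.14 ± 0.114) were lower in all 3 libraries with both treatments than in all 3 with PTSO alone, at adjusted p-values of 0.895 and 0.872. This arrangement held for 7.89% of all tested genes, and the reverse, which 0 members had, for 7.49%. Without control libraries 2 and 3, 0 members were called, where 0.481% of all tested genes were. In the fit of all 12 libraries Nkd1, Znrf3, Ephb2 and Cd44 were at -0.07, -0.01, -0.01 and -0.04. Its SEs and intervals rest on a spread shared with the control libraries. With control libraries 2 and 3 left out, the values of these 8 members moved little and their intervals were narrower. Lgr5 was then at -0.247 (interval -0.407 to -0.0871), Rnf43 at -0.137 (-0.224 to -0.0497) and Axin2 at -0.103 (-0.184 to -0.0217). These intervals did not include 0, and those of Notum, Nkd1, Znrf3, Ephb2 and Cd44 did. With all 12 libraries the members' median was -0.0899, beside 0.00175 for all genes. All 8 members had values below 0, as did 49.4% of all tested genes.

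**Figure D4:**
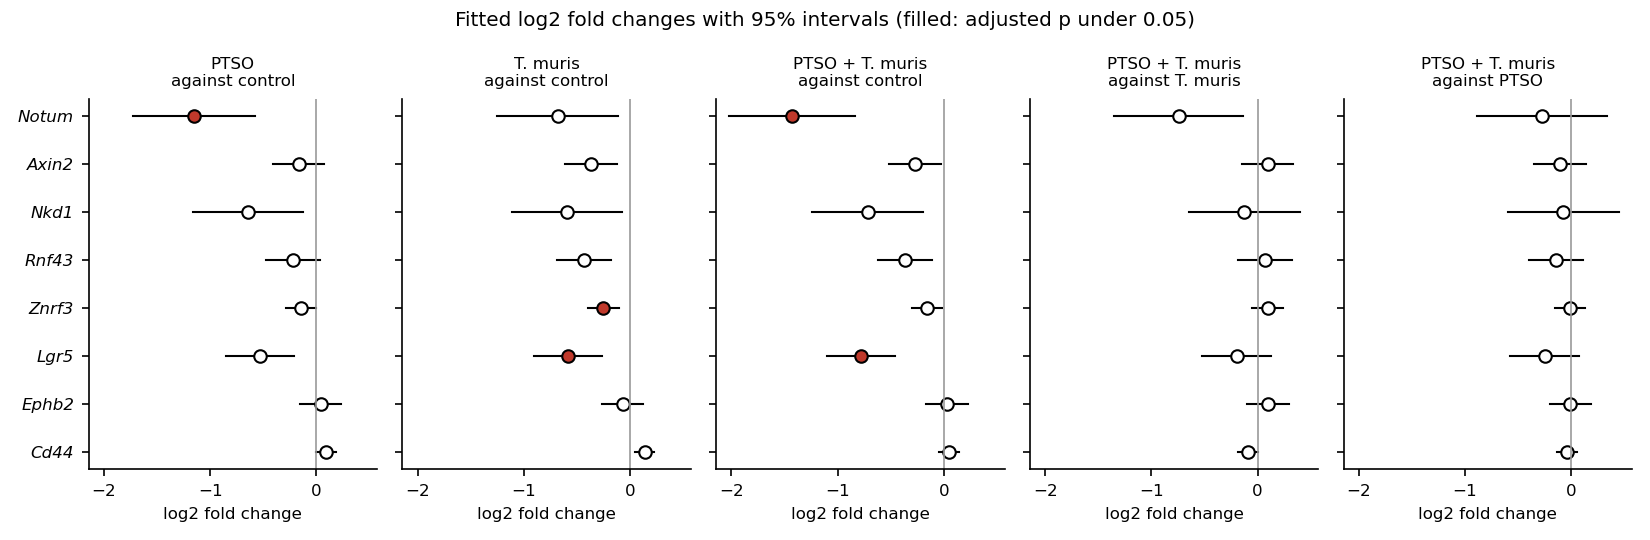
Log2 fold changes of the 8 tested members with 95% intervals in 5 comparisons, from the fit of all 12 libraries; filled points are called at an adjusted p under 0.05. Notum is filled in PTSO against control and in both treatments against control, Lgr5 in T. muris and in both treatments against control, Znrf3 in T. muris against control, and no point is filled in the comparisons without the control group.

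The interaction asks whether the PTSO effect differed between cells with and without antigens. Of the 8 members 0 were called, as were 0% of all tested genes, and DESeq2 called 0. Cd44 (-0.18 ± 0.0629) and Znrf3 (0.24 ± 0.0959) were the 2 members with an unadjusted p under 0.05, both with adjusted p = 0.644. Notum was at 0.41 ± 0.398, with an interval of -0.427 to 1.24. Without control library 1, 5 members were called in the interaction, where 8.14% of all tested genes were (3.63% higher and 4.5% lower), with Lgr5, Axin2, Rnf43 and Znrf3 above 0 and Cd44 below it. When control libraries 2 and 3 were left out, 0 members were called, where 0.00602% of all tested genes were, and Lgr5, Axin2, Nkd1 and Rnf43 had values of the opposite sign, between -0.12 and -0.04.

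The other genes of the pathway were taken from lists by role. CMT-93 expressed several Wnt ligands of its own: of 19 ligand genes, 7 were tested, led per length by Wnt6 (199 CPM per kilobase), Wnt7b (138), Wnt10a (76) and Wnt4 (65.8 CPM per kilobase). The Wnt carrier Wls was at 71.7 CPM per kilobase. R-spondins, which stabilise the receptors through Lgr proteins, were nearly absent: Rspo1 had 3 counts and Rspo4 2 in all libraries together, and Rspo2 and Rspo3 had 0.

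Wnt4, which encodes a secreted Wnt ligand, had 304, 403 and 437 CPM in the control libraries and 260, 219 and 236 CPM with PTSO. It had 266, 262 and 285 CPM with T. muris and 204, 213 and 226 CPM with both. The treated libraries were all below the control libraries, and those with both treatments below those with antigens alone. Wnt4 fell in PTSO against control (-0.68 ± 0.118, adjusted p = 0.0129), in T. muris against control (-0.49 ± 0.118, adjusted p = 0.039) and with both against control (-0.83 ± 0.118, adjusted p = 0.00197). Its values were -0.35 (adjusted p = 0.0322), -0.17 (0.998) and -0.5 (0.000708) in these comparisons with control libraries 2 and 3 left out. The call with PTSO was lost without control library 2, PTSO library 2 or PTSO library 3 (adjusted p up to 0.0626), the call with antigens was lost without 9 of the 12 libraries, and the call with both held without any 1 library. In PTSO + T. muris against T. muris it was at -0.34 ± 0.118 (adjusted p = 0.388), and at -0.34 with adjusted p = 0.000859 without control libraries 2 and 3.

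Ligand genes had 2 of 7 called lower in PTSO against control (Wnt4 and Wnt10a), 4 in T. muris against control and 4 with both treatments (Wnt4, Wnt6, Wnt9a and Wnt10a), and 0 called higher, where 2.9%, 3.43% and 8.85% of all tested genes were called lower. Their medians were -0.18, -0.27 and -0.28. Of these calls, those of Wnt4 with PTSO and with both remained without control libraries 2 and 3, and the others were lost (adjusted p from 0.102 to 0.998). Wnt9a fell by 0.528 ± 0.08 on the log2 scale with antigens, from 68.9 to 47.9 CPM (adjusted p = 0.0104), and was at -0.29 (adjusted p = 0.622) without control libraries 2 and 3. Wls, which carries Wnt ligands to the membrane, fell by 0.253 ± 0.0543 with both treatments (adjusted p = 0.00438). Among 14 tested receptor genes, Lgr4, the paralog of Lgr5, was called lower with antigens (-0.35 ± 0.0999, adjusted p = 0.0433) and with both (-0.42 ± 0.1, adjusted p = 0.00863). The other paralog, Lgr6, was called higher with PTSO (0.23 ± 0.0541, adjusted p = 0.0169) and with both (0.16 ± 0.0543, adjusted p = 0.0486). Called higher were 2.36%, 2.91% and 7.88% of all tested genes in PTSO, T. muris and both against control. The receptor list had medians of -0.00998, -0.03 and 0.02. The calls of Wls, Lgr4 and Lgr6 were all lost without control libraries 2 and 3, with adjusted p from 0.35 to 0.998; Lgr6 was then at 0.2 with PTSO and Lgr4 at -0.17 with both.

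Of 5 tested R-spondin and secreted inhibitor genes, Dkk3, a Dickkopf family gene, was lower with PTSO (-1.57 ± 0.442, adjusted p = 0.0443) and with both (-1.46 ± 0.444, adjusted p = 0.0295), on 7 to 78 counts per library, of which control library 3 held the 78. The Dickkopf receptor gene Kremen1 was lower with both (-0.19 ± 0.062, adjusted p = 0.0396). These calls were lost without control libraries 2 and 3 (adjusted p from 0.741 to 0.844). All 13 destruction complex and Dishevelled genes were tested, and 0 were called in any comparison with edgeR. At an unadjusted p under 0.05 there were 0 to 4 in a comparison, and DESeq2 called Axin1 in T. muris and in PTSO + T. muris against control; Tnks2 and Csnk1a1 had the highest means, 584 and 346 CPM. Of 12 tested nuclear effectors, 2 were lower with PTSO, 3 with antigens and 6 with both, and 0 were higher, where 2.9%, 3.43% and 8.85% of all tested genes were lower. Their medians were -0.15, -0.19 and -0.25, and 0 of these calls remained without control libraries 2 and 3 (adjusted p from 0.482 to 0.998), where Tle2 was at -0.25, -0.35 and -0.22. The called effectors were the Groucho family corepressor genes Tle2 (-0.76, -0.87 and -0.74) and Tle3 (-0.25, -0.34 and -0.3) in all 3 comparisons, Ctnnb1, the beta-catenin gene, with antigens and with both (-0.2 and -0.21), and Tcf7l2 (-0.39) and the beta-catenin coactivators Bcl9 (-0.34) and Bcl9l (-0.32) with both.

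Of 12 further Wnt targets tested, 2 were lower with PTSO, 2 with antigens and 5 with both against control, where 2.9%, 3.43% and 8.85% of all tested genes were lower. Their medians were -0.16, -0.22 and -0.16, and 0 of these calls remained without control libraries 2 and 3 (adjusted p from 0.274 to 0.998), where Mmp7 was at -0.41 with PTSO and -0.26 with both. The ephrin receptor gene Ephb3 was called with antigens and with both (-0.31 and -0.36), the matrix metalloproteinase gene Mmp7 with PTSO and with both (-1.07 and -0.92), Lbh likewise (-0.49 and -0.58), the ephrin gene Efnb2 with both (-0.14), and Wnt6, which is also a ligand, with antigens and with both (-0.26 and -0.24). Without control libraries 2 and 3, Efnb2 with both treatments was at -0.136, nearly unchanged. Ephb3, Lbh and Wnt6 with both were then at -0.14, -0.213 and -0.0355. With all 12 libraries, the cyclin D1 gene Ccnd1 was the 1 pathway gene that edgeR called in PTSO + T. muris against T. muris. Of all tested genes 0.386% were called lower there. Ccnd1 had 472, 480 and 488 CPM with antigens and 441, 394 and 417 CPM with both, a fall by 0.203 ± 0.0463 on the log2 scale with adjusted p = 0.049. The call of Ccnd1 was lost without 10 of the 12 libraries, with adjusted p up to 0.423, and held without control library 1, without control library 3 and without control libraries 2 and 3 together (0.00135).

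**Figure D5:**
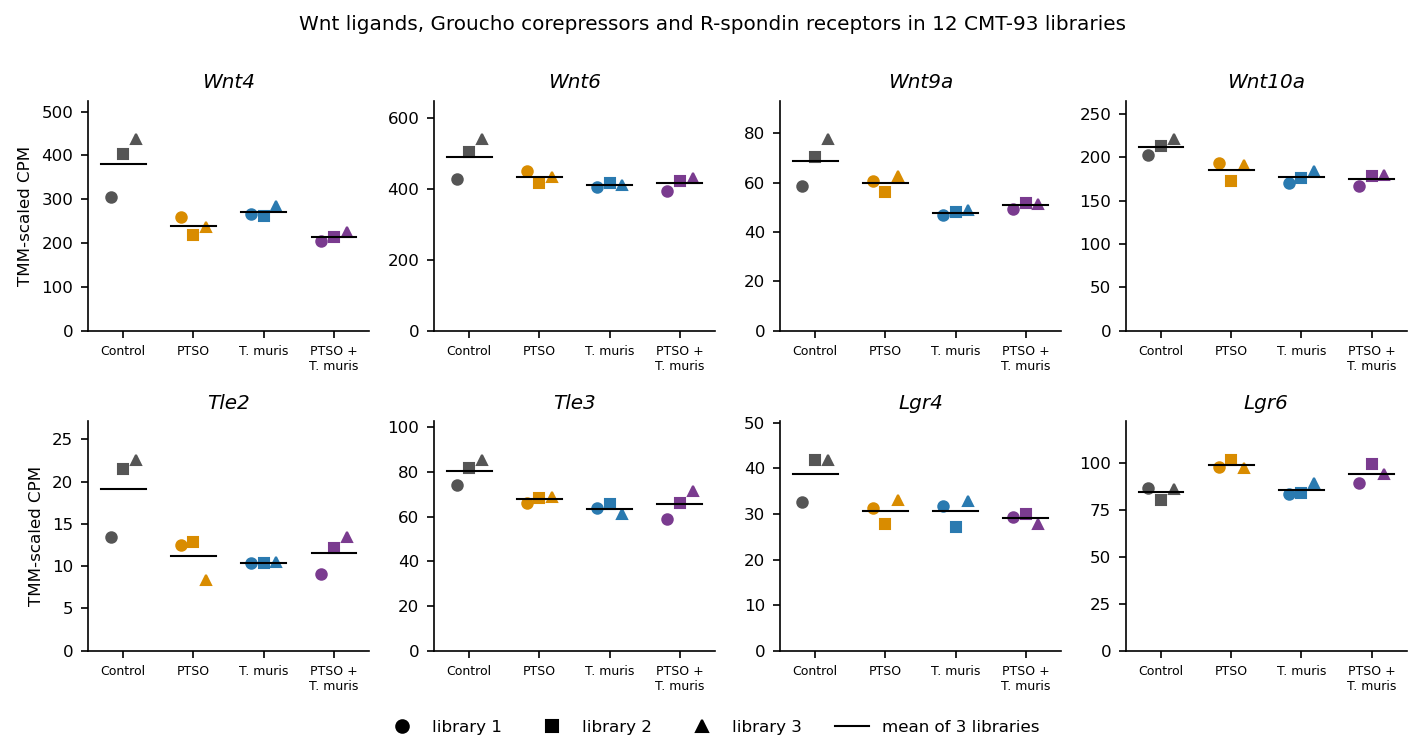
Level of 4 Wnt ligand genes, of the Groucho family genes Tle2 and Tle3 and of the R-spondin receptor genes Lgr4 and Lgr6 in each of the 12 libraries, in TMM-scaled CPM on axes that start at 0, with a line at each group's mean of 3 libraries. Control libraries 2 and 3 are the highest for Wnt4, Wnt6, Wnt9a, Wnt10a, Tle2, Tle3 and Lgr4, while Lgr6 has its highest mean with PTSO.

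Control libraries 2 and 3 both lay above the other 10 libraries for 4 of 7 ligands, 2 of 2 secretion genes, 1 of 14 receptors, 2 of 5 R-spondin and inhibitor genes, 3 of 13 destruction complex genes, 7 of 12 nuclear effectors, 4 of 12 further targets, 2 of 11 stem cell genes, 0 of 6 differentiation genes and 3 of 9 epithelial markers, beside 14.6% of all tested genes. They both lay below the other 10 for Wnt7a, Fzd5, Gsk3a, Myc, Ly6a, Krt8 and Krt18, beside 15.5% of all tested genes. Differences between the lists were not tested. Of the pathway and stem cell genes of the lists that were called in a comparison with control, 1 of 9 remained called with PTSO (Wnt4), 0 of 10 with antigens and 2 of 25 with both (Wnt4 and Anxa1) without these libraries. Leaving out 1 library at a time, 1 of 9 kept its call in every case with PTSO (Anxa1), 0 of 10 with antigens and 7 of 25 with both (Wnt4, Wnt9a, Wnt10a, Wls, Bcl9l, Lbh and Anxa1). Control library 2 ended 8, 10 and 16 of these calls, control library 3 ended 6, 9 and 14, and control library 1 ended 0. Treated libraries ended calls too. PTSO libraries 1, 2 and 3 ended 4, 8 and 8 of those with PTSO. T. muris libraries 1, 2 and 3 ended 10, 9 and 8 of those with antigens. PTSO + T. muris libraries 1, 2 and 3 ended 15, 9 and 6 of those with both. Over all tested genes, calls with PTSO went from 802 to 165 without control library 2 and 222 without control library 3. Those with antigens went from 969 to 5 and 66, and those with both from 2554 to 990 and 1089. The loss of calls is therefore not particular to the pathway genes. What set control libraries 2 and 3 apart was not tested.

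Notum's pattern over the 12 libraries was most like that of Sema3b, a semaphorin gene, with a Pearson correlation of 0.96 in log2 CPM, followed by Pik3c3 (0.951), Tmem63a (0.95), Elovl5 (0.95) and Itm2b (0.944), among 11732 genes whose mean log2 CPM reached 1. Their group means in control, PTSO, T. muris and both were 49.9, 38.9, 40.3 and 35.3 CPM for Sema3b and 35.1, 24.2, 29.1 and 22.7 CPM for Tmem63a. The 12 points share the groups and the control libraries that stood apart, and the values are a description of likeness in these libraries.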

How the data were processed

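Gene-level counts of 12 CMT-93 libraries were analysed, grouped by the treatment label. The authors deposited raw read counts per gene in 1 table; per the submitters' processing notes HISAT, DESeq2 and the mm39 build were used, with the roles of these tools unstated. Which program, annotation and strand setting gave the counts is not given in the sources used here. Without strand, reads of overlapping antisense genes cannot be told apart. Unannotated loci (1336, with 0.351% of the counts) stayed in the tests.

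Genes were filtered with filterByExpr of edgeR 4.0.16 (15267 kept, with 99.9% of the counts) and scaled by TMM. A quasi-likelihood model with 1 coefficient per group and 8 residual degrees of freedom was fitted to all 12 libraries, with Benjamini-Hochberg adjustment over all tested genes and a threshold of 0.05. The SE is the log2 fold change divided by the square root of F, and intervals are 95%. The level per length divides CPM by the exonic length in GENCODE M21, an annotation of an earlier build. On simulated counts for PTSO against control, 200 of 14900 genes were changed by 1 on the log2 scale. Of these 200, 97.5% were recovered, and 3.47% of calls were false. Recovery of smaller changes was not tested. The rates describe those counts and not the calls in the 12 libraries, where control libraries 2 and 3 stood apart. Upstream sequences are from RefSeq, build GRCm38.p6. Alternatives were DESeq2 1.42.0, RLE and upper-quartile scaling, no filter, a fit of the compared groups alone, a replicate block, and each library left out, as well as control libraries 2 and 3 together. R 4.3.3, Python 3.11.15 and matplotlib 3.10.9 were used.

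The members, the lists and the rule for naming genes were chosen with earlier results of these data known. The rule names all 10 members, every list gene called in a comparison (otherwise the 2 with the highest mean CPM), and the 5 genes most like Notum.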

Additional observations from a re-analysis of the deposited data

How the results depend on the processing

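The number of members called depended on the libraries and on the tool in the comparisons with control. In PTSO against control it was 1; it was 3 with DESeq2, 2 without a filter on low counts, 0 without control libraries 2 and 3 together, 0 with only the libraries of the groups compared and from 0 to 6 with single libraries left out. In T. muris against control it was 2; it was 6 with DESeq2, 6 without the filter, 0 without control libraries 2 and 3, 0 with only the groups compared and from 0 to 7 with single libraries left out. In PTSO + T. muris against control it was 2; it was 5 with DESeq2, 4 without the filter, 0 without control libraries 2 and 3, 1 with only the groups compared and from 2 to 6 with single libraries left out. In the interaction it was 0, and from 0 to 5 with single libraries left out. It was 0 in both other comparisons under every alternative run. RLE and upper-quartile scaling moved no count of members. Among all tested genes, DESeq2 called 1431 of 11654 with PTSO, 1841 of 11654 with T. muris and 2898 of 12219 with both against control. Without the filter, 1728, 2063 and 2963 of 29209 genes were called in the same comparisons. With only the groups compared, 46 of 14629, 1 of 14518 and 864 of 14560 genes were called.

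Replicate numbers showed no clear pairing of the libraries. Of 18 correlations of deviations between same-numbered libraries, 0 exceeded 0.1, and the closest library had the same number in 9 of 36 cases. The 18 correlations ranged from -0.0584 to 0.0976, so a weak pairing is not excluded. With the replicate number as a block, 2 members were called in PTSO against control, 4 in T. muris against control and 3 in PTSO + T. muris against control, and 0 in the others. Of all 15267 tested genes, 904, 1246 and 2674 were called in these comparisons with control. The block gave 87 calls over all genes in PTSO + T. muris against T. muris, 0 against PTSO and 1 in the interaction.

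Signs turned without control libraries 2 and 3 for Axin2 (0.153), Rnf43 (0.126) and Znrf3 (0.00978) in PTSO against control, for Axin2 (0.0505) and Znrf3 (0.00482) with both treatments against control, and for Lgr5 (-0.121), Axin2 (-0.0576), Nkd1 (-0.0396) and Rnf43 (-0.0517) in the interaction; the cause was not tested. With single libraries left out, Ephb2 ranged from -0.0504 to 0.0791 in PTSO against control, -0.15 to 0.0215 in T. muris against control, -0.0221 to 0.0639 with both against control, -0.0576 to 0.0789 in PTSO + T. muris against PTSO and -0.0286 to 0.15 in the interaction. Nkd1 ranged from -0.239 to 0.0169 in PTSO + T. muris against T. muris and -0.185 to 0.0711 against PTSO, and Znrf3 from -0.0174 to 0.0118 against PTSO. None of these was called.

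Over all genes, the number called was 802 in PTSO against control, and 165 to 3637 with single libraries left out and 46 to 1728 under the other alternatives. The same ranges were 2 to 4044 and 1 to 2063 around 969 in T. muris against control, 990 to 4799 and 204 to 2963 around 2554 with both against control, 23 to 371 and 87 to 479 around 94 in PTSO + T. muris against T. muris, 0 to 36 and 0 to 80 around 0 against PTSO, and 0 to 1279 and 0 to 45 around 0 in the interaction. Sox9, with 53 counts in all, and Ascl2, with 0, were too low to test, and the 48 counts of the lowest library limit Notum.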

Other observations

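Crypt and regenerative stem cell genes outside the members moved in both directions with both treatments against control, with 3 of 11 tested genes called higher and 3 lower, where 7.88% and 8.85% of all tested genes were. Ly6a, which encodes the surface antigen Sca-1 and marks regenerating intestinal epithelium, was the most abundant of them at 1130 CPM per kilobase, and rose by a log2 fold change of 0.16 ± 0.0397 (adjusted p = 0.0107). Clu, the clusterin gene and a marker of revival stem cells, rose by 0.19 ± 0.0509 (adjusted p = 0.0159), and Cdca7 by 0.33 ± 0.106 (adjusted p = 0.0371). Prom1, which encodes the membrane protein CD133, was lower (-0.17 ± 0.046, adjusted p = 0.0158), as were the epidermal growth factor receptor antagonist gene Lrig1 (-0.46 ± 0.104, adjusted p = 0.0143) and the annexin gene Anxa1 (-0.43 ± 0.0629, adjusted p = 0.000377). Anxa1 was also called lower with PTSO (-0.37 ± 0.0628, adjusted p = 0.00394) and with antigens (-0.25 ± 0.0628, adjusted p = 0.0305). Anxa1 alone of these 6 genes remained called with both treatments when control libraries 2 and 3 were left out (-0.23, adjusted p = 0.0068), and the calls of the other 5 were each lost without control library 2. Without control libraries 2 and 3, the values with both treatments were 0.104 for Ly6a, 0.204 for Clu and 0.0733 for Cdca7. They were -0.0879 for Prom1 and -0.151 for Lrig1, so that Clu alone of these 5 did not move towards 0. The call of Anxa1 with antigens was lost without control library 2, control library 3 or any T. muris library. In PTSO + T. muris against T. muris edgeR called 0 of the 11, with 7 values below 0 and 4 above, and DESeq2 called Prom1. Prom1 (-0.188 ± 0.046), Lrig1 (-0.172 ± 0.104) and Anxa1 (-0.184 ± 0.0628) were lower there without overlap of the groups, as were 9.74% of all tested genes. Their values were -0.187, -0.171 and -0.182 with control libraries 2 and 3 left out. In that fit, which holds a lone control library, edgeR called each of them lower.

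Of 16 differentiation genes of the intestine, 6 were tested. The Notch target Hes1 (73.8 CPM), the transcription factor gene Klf4 (40.5 CPM) and the tuft cell marker Dclk1 (20.4 CPM) had the highest means, while Muc2, Fabp1, Atoh1, Car4 and Tff3 had no count in any library, and 0 of the 6 tested genes were called in any of the 6 comparisons with edgeR, where 0 to 2 had an unadjusted p under 0.05 and DESeq2 called 0.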
